A study of Mus musculus with 6 samples.

Results

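The genes described here are 7 interferon-inducible genes of the mouse, 3 GTPases (Tgtp1, Irgm2 and Gbp10) and 4 antiviral effectors (Ifit1, Oas2, Oas3 and Rsad2). They were taken by symbol from a deposited expression table of 570 rows, and all 7 were found. The series concerns primary osteoclasts, the myeloid cells that resorb bone. They came from C57BL/6 mice of wildtype genotype, were induced with the cytokines RANKL and M-CSF, and are labelled day 3. It has 3 control samples and 3 samples that also received interferon-gamma; RANKL and M-CSF were given to both groups, and the sources used here do not give the age or sex of the mice or any pooling of animals. Whether the control samples came from separate animals or cultures is not stated, so the spread between them may be technical.

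The control values come from 3 columns named CTRL, matched to the control samples by their titles alone. The same samples' library names are BLANK1, BLANK2 and BLANK3, which no column carries, so whether the table was made from these samples is open, and each control value below is that of a column so named. The other 3 value columns carry the name FKD, which matches no sample label. They were not analysed here, so whether the 7 genes move the same way between the column sets is not reported and no gene is called changed. The table's name presents its rows as differentially expressed genes, selected by a rule that the sources used here do not state. What membership implies about level or spread is therefore unknown, and a gene that is not a row cannot be read as unexpressed. Comparisons with all rows below are made within this selected set.

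The label of the columns as osteoclasts rests on the sample titles to which the columns were matched by name. Of 12 osteoclast markers only Car2 was a row, with 9.97 to 11.6 across the columns, and 0 of 7 macrophage markers were rows. The defining osteoclast genes Acp5, Ctsk and Calcr were thus not among the rows. All 8 skeletal muscle markers were rows, with summed values of 645 to 664, as were 6 of 12 keratinocyte markers, with 1639 to 1660. The keratins Krt1, Krt10, Krt5 and Krt14, and the keratinocyte markers Lor and Ivl, were not among the rows. The lists were chosen with earlier results of these data known, so the counts of rows cannot be compared between cell types. Of the neutrophil markers 2 of 6 were rows (0.439 to 1.35 in sum, with Camp at 0 in one column), and of the lymphocyte markers 1 of 7 (0.441 to 0.708). The part of such cells in the levels below was not tested. In bulk samples, fewer cells of a type and less RNA per cell cannot be told apart.

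Interferons bind receptors at the cell surface and act through DNA elements near their target genes. The interferon-stimulated response element (ISRE) is known above all from the response to type I interferons, and the gamma-activated site (GAS) from that to interferon-gamma. Immunity-related GTPases (the IRG family) and guanylate-binding proteins (GBPs) act in cells on the membranes of vacuoles that hold pathogens. IFIT proteins bind viral RNA, OAS enzymes make 2′-5′-linked oligoadenylates that activate RNase L, and viperin, the product of Rsad2, makes a chain-terminating nucleotide. In osteoclast precursors, interferons are known as inhibitors of differentiation.

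The promoters are shown first because their sequences were not used to choose the genes. The genes were chosen as interferon-inducible, however, so matches to these interferon elements are not independent of that choice. RefSeq promoter sequences (GRCm38.p6, each from 250 bases before to 50 bases after the gene's start) were at hand for 5 of the 7 genes, namely Tgtp1, Irgm2, Ifit1, Oas3 and Rsad2. Each sequence below runs 5′ to 3′ along the gene's strand from 140 bases before the start to 10 bases after it. Capitals mark ISRE letters (GAAA, any 2 bases, GAAA) or GAS letters (TTC, any 3 bases, GAA), searched on both strands. Ifit1 and Rsad2 hold the ISRE on the opposite strand, where it reads as TTTC, any 2 bases, TTTC. The windows lie at chr11:48992237-48992386 on the minus strand for Tgtp1, chr11:58214837-58214986 on the plus strand for Irgm2, chr19:34640749-34640898 on the plus strand for Ifit1, chr5:120777650-120777799 on the minus strand for Oas3 and chr12:26456443-26456592 on the minus strand for Rsad2.
Tgtp1: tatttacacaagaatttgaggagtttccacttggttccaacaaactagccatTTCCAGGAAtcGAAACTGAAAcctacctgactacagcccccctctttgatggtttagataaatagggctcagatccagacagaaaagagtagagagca
Irgm2: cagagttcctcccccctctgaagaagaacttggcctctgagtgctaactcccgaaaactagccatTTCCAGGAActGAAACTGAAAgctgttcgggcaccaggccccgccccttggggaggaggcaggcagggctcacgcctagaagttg
Ifit1: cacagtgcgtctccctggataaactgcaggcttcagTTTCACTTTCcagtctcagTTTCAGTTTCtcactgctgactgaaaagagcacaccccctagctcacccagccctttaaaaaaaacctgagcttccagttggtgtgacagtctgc
Oas3: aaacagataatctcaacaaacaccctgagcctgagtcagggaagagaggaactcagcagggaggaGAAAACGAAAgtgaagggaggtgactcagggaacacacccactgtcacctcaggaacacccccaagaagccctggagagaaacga
Rsad2: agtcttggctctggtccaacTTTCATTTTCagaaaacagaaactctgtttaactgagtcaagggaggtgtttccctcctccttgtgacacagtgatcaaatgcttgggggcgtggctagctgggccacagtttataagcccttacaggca

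ISRE letters were present in 5 of these 5 promoters, beside 3.44% of the 32851 promoters in the RefSeq table. Among the other rows of the expression table, 20 of 460 promoters held them (4.35%). Ifit1 had 2 matches, which began 104 and 85 bases before the start, and the other genes had 1 each. The matches began 77 bases before the start in Tgtp1, 64 in Irgm2, 75 in Oas3 and 120 in Rsad2. GAS letters were found in Tgtp1 and Irgm2, beside 8.30% of all promoters and 7.39% of those of the other rows. In both GTPase promoters the GAS ended 2 bases before the ISRE began, so the motifs did not overlap. This spacing was looked for after it had been seen in both genes. It occurred in 5 of the 32851 promoters, those of Tgtp1, Irgm2, Tgtp2, Igtp and Gm12185. The promoters of Tgtp1 and Irgm2 also share a run of 20 identical bases that ends with the GAS, and these GTPase genes are related copies, so they are not independent instances. A match of letters is a description of the sequence and no evidence of binding.

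**Figure D1:**
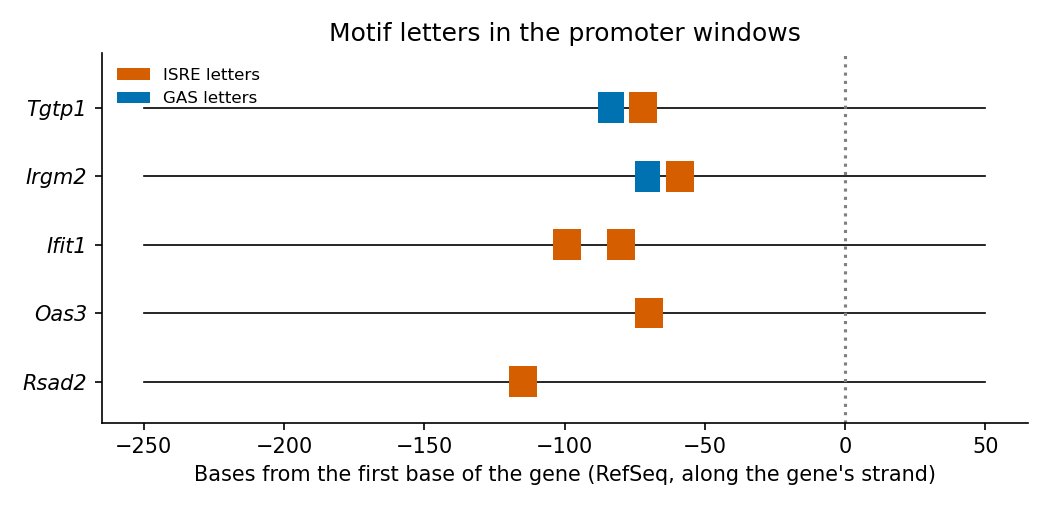
Positions of ISRE letters (orange) and GAS letters (blue) in the promoters of 5 genes, in bases from the first base of the gene along its strand. All matches lie upstream of the start, and in Tgtp1 and Irgm2 the GAS stands 2 bases before the ISRE.

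On the deposited scale of normalised expression values, whose unit the sources do not name, the 7 genes fell into a high pair, a gene of middle level and a low group. Ifit1 and Tgtp1 had means of 15.8 and 14.5, Irgm2 2.75, and Gbp10, Rsad2, Oas2 and Oas3 each a mean below 1. A mean of at least 1 was thus reached by 3 of the 7 genes, beside 53.7% of all rows, and a mean of at least 10 by 2 of the 7, beside 14.9%. The median of the 7 means was 0.444 ± 0.0642 (SD of the column medians, n = 3), beside 1.18 over all rows. None of the 7 was listed at 0 in a column. High and low levels occurred among both the GTPases and the antiviral genes.

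**Figure D2:**
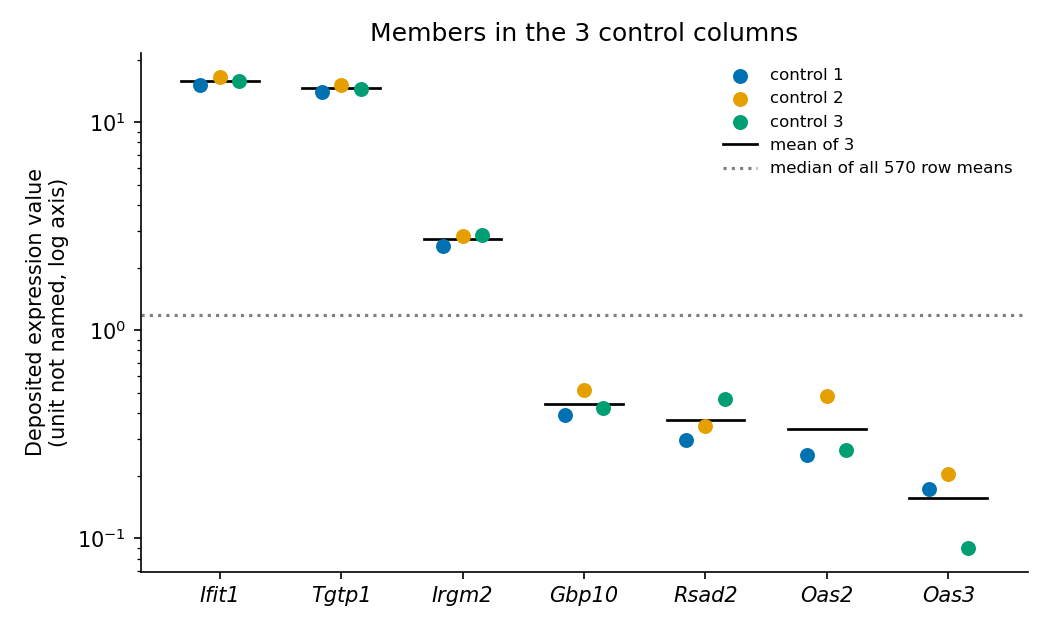
Deposited expression value (log axis, unit not named) of each gene in control 1, 2 and 3, with the mean as a bar; the dotted line is the median of the 570 row means, 1.18. Ifit1, Tgtp1 and Irgm2 lie above the line in every column, and the other 4 genes below it.

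Tgtp1, named as a T-cell-specific GTPase, encodes a member of the IRG family, also known as Irgb6, which coats pathogen vacuoles. Its expression values in controls 1, 2 and 3 were 14.0, 15.1 and 14.5, a mean of 14.5 ± 0.518 (SD, n = 3) and rank 69 of the 570 row means. The columns lay close together, the highest being 1.07 times the lowest. The coefficient of variation (CV) was 3.56%, and 41 of the 50 rows nearest in mean level had a larger one. The assignment of reads to Tgtp1 is uncertain because of a near copy: 89.4% of the 50-base stretches of its longest coding transcript also occur in Tgtp2, and 91.4% in Tgtp2 or Gm12185. Tgtp2 was not a row of the table. Gm12185, a predicted gene that shares stretches with Tgtp1 as well as the promoter spacing above, was a row at 0.0538, 0.0570 and 0.104 in the 3 columns, a mean of 0.0715 ± 0.0279 (SD, n = 3). It was named because of that spacing and is on none of the lists.

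Irgm2 encodes a regulatory member of the IRG family that sits on the cell's own membranes and controls effector GTPases. Controls 1, 2 and 3 had values of 2.56, 2.85 and 2.86, with a mean of 2.75 ± 0.172 (SD, n = 3) and rank 179. Controls 2 and 3 were nearly equal, and control 1 stood at 89.6% of their mean. Its CV of 6.24% was below that of 37 of the 50 rows of like level. Of its 50-base transcript stretches 7.30% occur in other genes, mostly in its neighbour Igtp. The values of Tgtp1 were 5.28 ± 0.212 times those of Irgm2 within a column (SD, n = 3), so the pair kept nearly the same ratio in all 3.

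Gbp10 encodes a guanylate-binding protein, a large GTPase of a family known for lysing vacuoles and bacteria. Its deposited values were 0.392, 0.519 and 0.423 for controls 1, 2 and 3, with a mean of 0.444 ± 0.0666 (SD, n = 3) and rank 417. Control 2 was the highest column and 1.33 times control 1. The CV was 15.0%, and 32 of the 50 rows nearest in level had a larger one. Its reads are of uncertain assignment too, since 82.5% of its 50-base stretches occur in other genes, led by Gm43302 with 79.2% and followed by Gbp6.

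Ifit1 encodes an RNA-binding protein that blocks translation of RNA lacking the cap methylation of the host. It was the highest of the 7, with 15.1, 16.6 and 15.8 in controls 1, 2 and 3, a mean of 15.8 ± 0.745 (SD, n = 3) and rank 66. The lowest Ifit1 value lay just above the highest Tgtp1 value, 15.09 against 15.08, so the ranges nearly touched. Within a column Ifit1 was above Tgtp1 in all 3, by 1.09 ± 0.0127 times (SD, n = 3). The CV of 4.71% was below that of 37 of the 50 rows of like level. Its transcript shares 7.13% of its stretches with Ifit1bl1 and Ifit1bl2.

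Rsad2 encodes viperin, a radical SAM enzyme. The values of controls 1, 2 and 3 were 0.297, 0.345 and 0.466, with a mean of 0.369 ± 0.0872 (SD, n = 3) and rank 441. Control 3 was the highest column and 1.57 times control 1, the lowest. The CV of 23.6% was near the median of 22.0% over the 50 rows of like level. No stretch of 50 bases of the Rsad2 transcript was found in another gene.

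Oas2 and Oas3 encode oligoadenylate synthetases with several synthetase units and are neighbours in the gene order of chromosome 5. Oas2 had values of 0.252, 0.486 and 0.265 across controls 1, 2 and 3, with a mean of 0.334 ± 0.131 (SD, n = 3) and rank 460. Control 2 stood apart, at 1.93 times control 1, while controls 1 and 3 were close. Oas3 was listed at 0.172, 0.205 and 0.0896 in controls 1, 2 and 3, with a mean of 0.156 ± 0.0594 (SD, n = 3) and rank 531, the lowest of the 7. Here it was control 3 that was low, and the highest column was 2.29 times the lowest. These were the largest relative spreads among the 7, with CVs of 39.3% for Oas2 and 38.2% for Oas3; 5 and 10 of the 50 rows of like level had a larger one. Oas2 was above Oas3 in each column, by 1.46, 2.37 and 2.96 times. Neither shares more than 0.471% of its transcript stretches with another gene.

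**Figure D3:**
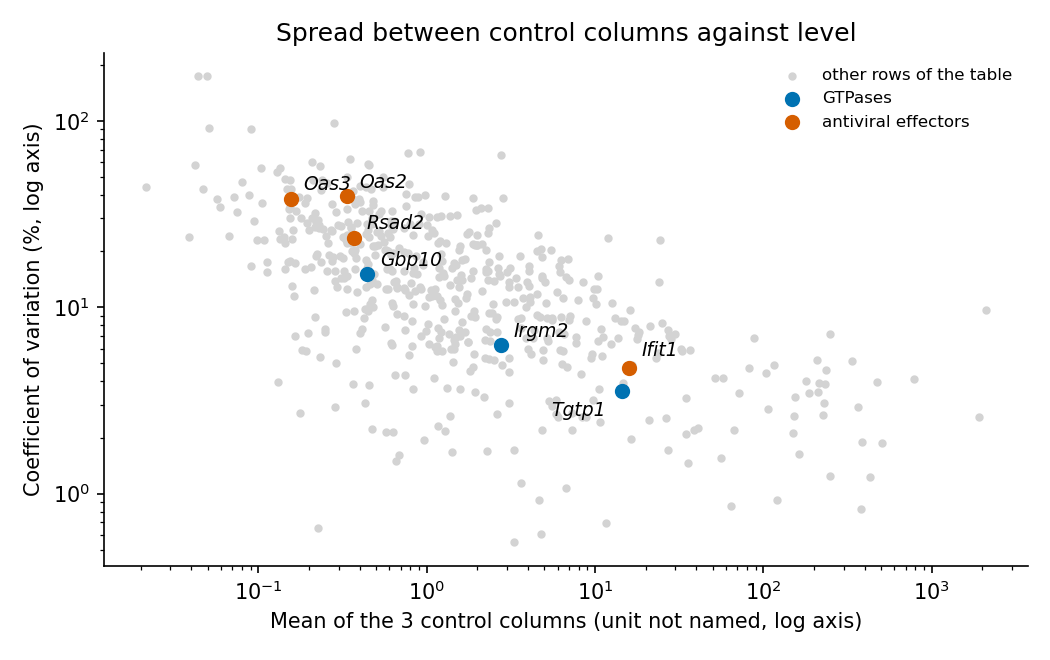
Coefficient of variation over the 3 control columns (%, log axis) against the mean (log axis, unit not named) for every row of the table with a spread above 0; GTPases are blue and antiviral effectors orange. The 3 genes with a mean of at least 1 have CVs of 3.56% to 6.24%, and the 4 lower genes 15.0% to 39.3%.

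By mean deposited value, the order was Ifit1, Tgtp1, Irgm2, Gbp10, Rsad2, Oas2 and Oas3. The ranges of Gbp10, Rsad2 and Oas2 overlapped, so the columns do not separate these 3 genes. Gbp10 was above Rsad2 in 2 of 3 columns, and Rsad2 above Oas2 in 2 of 3. The other neighbours in the order did not overlap. Since the unit is not named, it is open whether the deposited values are per transcript length. The longest coding transcripts range from 2656 bases for Ifit1 to 4720 bases for Oas3, and dividing the means by these lengths left all 7 genes in the same place. The lengths never fall along the order from Ifit1 to Oas3, so this division could not have moved any gene.

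Control 1 was the lowest column for 6 of the 7 genes, with Oas3 as the exception, and control 2 the highest for 5. Over all rows, control 1 was the lowest for 40.4% and control 2 the highest for 34.2%. For the 3 genes with a mean of at least 1, control 1 stood at 93.2% (Ifit1), 95.0% (Tgtp1) and 89.6% (Irgm2) of the mean of the other columns. The summed values of all rows went the other way, with 13620 in control 1, 13318 in control 2 and 13508 in control 3. The 7 genes together held 0.241%, 0.271% and 0.255% of these sums. The genes share their columns, so the 7 are not independent observations of a difference between libraries.

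**Figure D4:**
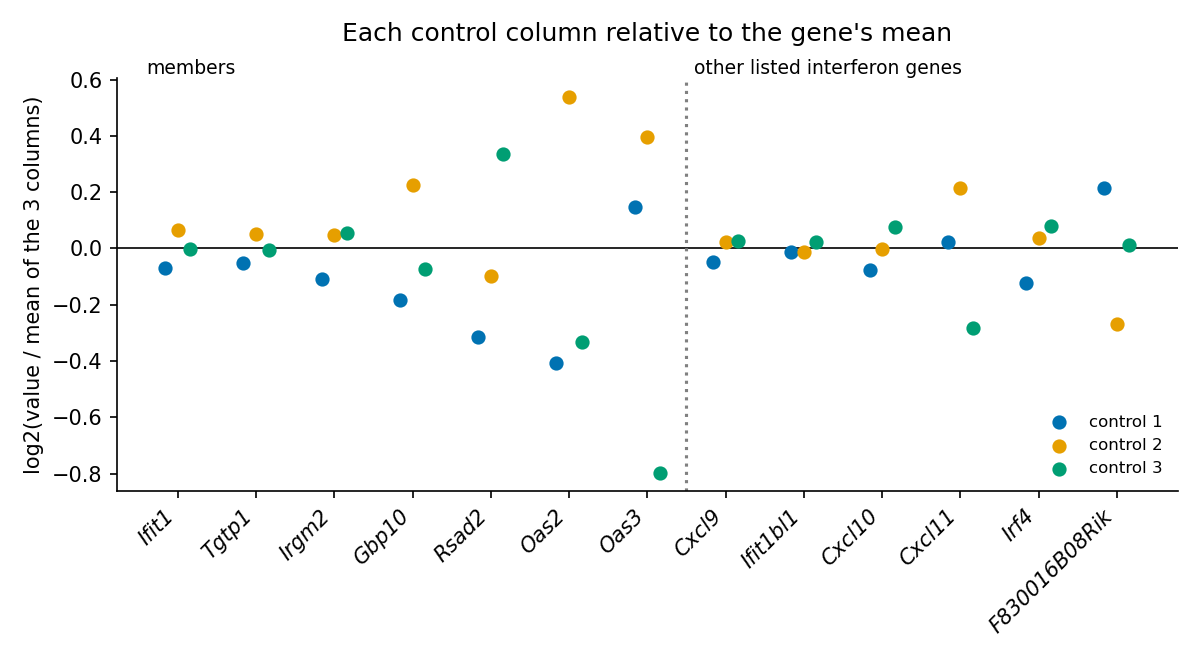
Value of each control column relative to the gene's own mean, as log2(value / mean), for the 7 genes (left of the dotted line) and for 6 other listed interferon genes (right). Control 1 (blue) is the lowest column for 6 of the 7 and for 3 of the other 6, and the distances are larger for the genes of low level.

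Relatives of the 7 genes were counted among all rows. As a background, 401 of the 27025 genes of the RefSeq promoter table were rows. That share leaves out rows with no promoter entry, such as Gbp10 and Oas2, which the counts include. The 7 genes were chosen as rows, so the counts of their families include that choice. Of 12 IRG family symbols 3 were rows, the third being F830016B08Rik at 0.0908 ± 0.0150 (SD, n = 3), and of 11 GBP symbols only Gbp10 was. Of 6 IFIT symbols 2 were rows. Ifit1bl1, an Ifit1-like gene, stood at 35.3, 35.3 and 36.2 in controls 1, 2 and 3, a mean of 35.6 ± 0.521 (SD, n = 3), and Ifit1 was at 0.444 ± 0.0224 times its value within a column (SD, n = 3). Of 13 symbols for OAS genes and RNase L only Oas2 and Oas3 were rows, and of 27 other antiviral genes only Rsad2. Cmpk2, a nucleotide kinase gene that lies beside Rsad2, was not a row.

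The sensors of viral RNA and DNA (13 symbols) and the interferon genes themselves (9 symbols) had 0 rows. Of 21 genes for interferon receptors, signalling and transcription factors, Irf4, a lymphoid and myeloid transcription factor, was the only row, at 0.198 ± 0.0144 (SD, n = 3). All 3 CXCR3 ligands, chemokines that attract T cells, were rows: Cxcl9 stood at 106.0 ± 2.997, Cxcl10 at 23.1 ± 1.23 and Cxcl11 at 0.450 ± 0.0767 (SD, n = 3). Like the 7 genes, the ligands thus spanned high and low levels. Over all lists, 13 of 115 symbols were rows, the 7 genes included.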

How the data were processed

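Messenger RNA was enriched with capture beads, fragmented and made into Illumina libraries, per the labels' protocols. Bowtie2 2.4.4 is listed, with GRCh37 and GRCm39 as builds and no role for any, per the submitters' processing notes; how reads were quantified is not given in the sources. The deposited values are a normalised expression signal made by the authors, never negative and of unnamed unit, so depth is unknown and no count model was used. The 7 genes and the gene lists were chosen with earlier results of these data known; all 7 genes are named, as are the listed interferon genes that are rows. Of 6 value columns 3 matched control titles and 3 matched no label and were not used; 0 matched interferon-gamma samples, so the planned test between groups was not run. Per gene the mean, SD and CV over the control columns were computed. Rows of like level were the 50 nearest in log2 mean. Promoter motifs came from the RefSeq table (GRCm38.p6) and shared 50-base stretches from GENCODE M21 transcripts. The motif search was tested on motifs planted in simulated sequences of C and G only. Such sequences cannot show how often the letters arise by chance. Across 518 rows with a coding transcript (98.7% of named rows), a fit of log2 CV on log2 mean and log2 length had slopes of -0.39 and -0.45. Alternatives were the median, pseudocounts of 0.1, 1 and 5, a filter at a mean of 1, leaving out columns and, chosen after the values were seen, division by transcript length and equal column sums or medians. Python 3.11.15, pandas 2.3.3, numpy 2.4.6 and matplotlib 3.10.9 were used.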

Additional observations from a re-analysis of the deposited data

How the results depend on the processing

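No paired analysis was possible because no column matched an interferon-gamma sample, which also left out every other setting of that comparison. Medians, pseudocounts of 0.1, 1 and 5 and leaving out a column cannot move a mean of 3 values by much against their SD, so for single genes these settings say nothing about stability. The median of the 7 means, 0.444, ranged from 0.407 to 0.471 with 1 column left out, and was 14.5 over the 3 genes with a mean of at least 1, since that filter removes the 4 low genes. By the median of the columns, and with any column left out, 3 genes again reached a level of 1. These settings could not change that count, since the 3 genes were above 1 in every column and the 4 low genes below it. All 7 genes kept their place in the order without control 1 or 2; without control 3, as within control 2 or 3 alone, 5 of 7 did. Control 1 was the lowest column for 6 of 7 genes also after scaling the columns to equal sums or equal medians. Since control 1 had the largest sum, 13620, and the largest median, 1.22, this scaling could not have lowered that count. No counting error can be given for the low genes, since the files hold no depth.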
